A study of Mus musculus with 12 samples.

Results

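Solute carriers are the membrane proteins that move amino acids, sugars, ions, organic acids, nucleosides and vitamins across the plasma membrane and the membranes of organelles. The genes described here were chosen by name and by level. Of 23238 gene symbols in the deposited files, 344 begin with the solute carrier name pattern (Slc, a family number, the letter a and a member number). A gene was kept if its linear value, the deposited log2 value turned back and less 1, was 10 or more in at least 4 of the 12 libraries. This left 197 genes of the 11955 genes of any name that met the same minimum, and 145 pattern matches below it. Slc4a1, Slc6a13, Slc1a2 and Slc1a3 were left out by name. Of these, Slc1a2 and Slc1a3 met the minimum, whereas Slc6a13 reached 10 in 3 libraries and Slc4a1 in 2. The choice used the level of each gene in these libraries, so levels and numbers of libraries with reads are descriptions. Of the 197, 4 match the pattern but are not carriers: Slc9a3r1 and Slc9a3r2, scaffold proteins that bind ion exchangers, Slc4a1ap, an adaptor protein, and Slc7a6os, a gene named for its place opposite Slc7a6.

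Most carriers use gradients rather than ATP. Sodium-coupled carriers draw on the gradient that the sodium pump maintains, exchangers swap a substrate on each side of the membrane, and uniporters let a substrate follow its own gradient. At the borders of the brain, carriers in endothelium, choroid plexus epithelium and meningeal cells set which nutrients enter, which waste products leave and how ions and fluid move. Most carriers of the SLC25 family sit in the inner mitochondrial membrane, and the family is present in nearly all cells.

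The libraries came from meninges, the membranes around the brain, of mice 20 weeks old. Cells enriched by magnetic sorting as meningeal lymphatic endothelium, the lining of the lymph vessels there, gave total RNA, of which 500 ng entered each library, made with the QuantSeq kit of Lexogen for sequencing near transcript ends. The 3 groups of 4 libraries are named SJL_B6, AD_B6 and AD_TG in the titles. The labels spell out none of these names and give C57BL/6 as the strain of all 12 samples, with no treatment, sex or allele. The title of the series names Alzheimer's disease and DSCR1, a protein that inhibits calcineurin. With 3 to 4 mice per strain in the design text, it is not stated which libraries share a mouse or a pool of mice, so each p-value measures the spread between these samples only.

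Values are on the deposited log2 scale unless another unit is named, and ± is the SD over libraries (n = 12 for all libraries, n = 4 within a group). Estimated reads per library ran from 4022407 to 9307807, and the linear minimum of 10 corresponds to 5.71 to 14.3 reads depending on the library. A value under 1 read (linear value below 0.3) is written as below 1 read. Markers of the labelled cell type were lower on average than those of choroid plexus, macrophages and meningeal fibroblasts. The 7 lymphatic endothelial markers averaged 5.27 ± 1.14 and the 7 pan-endothelial markers 5.38 ± 1.55, and Prox1, the transcription factor that gives endothelium its lymphatic identity, had reads in only 2 libraries. Within these lists levels differed: Flt4 had reads in 6 libraries, Reln in 4 and Lyve1 in 11, whereas Pdpn at 9.31 ± 0.87, Nrp2 at 9.16 ± 0.67 and Kdr at 8.40 ± 0.82 had reads in all 12. The 7 choroid plexus markers averaged 10.53 ± 2.27, the 7 macrophage markers 10.78 ± 0.54 and the 7 meningeal fibroblast markers 9.36 ± 1.08. Choroid plexus markers stood at 5.06 in SJL_B6 replicate 2 and 6.81 in AD_B6 replicate 1, against 10.2 to 12.6 in the other 10 libraries. In bulk RNA, fewer cells of a type and less RNA per cell cannot be told apart.

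Carriers were read in every library but not the same ones in each. At least 1 read was present for 137 to 177 of the 197 genes. SJL_B6 had 166 ± 8.16, AD_B6 157.8 ± 16.4 and AD_TG 170 ± 4.69, and the groups overlapped. The lowest number, 137, was in AD_B6 replicate 3, whose share of 69.5% compared with 68.4% over all genes tested in that library, the lowest on both counts. Together the 197 genes made up 1.52 to 1.96% of the linear total of a library. A total of 78 genes had reads in all 12 libraries, 39.6% against 41.3% of all genes tested, and 64 reached the linear minimum in all 12.

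**Figure D1:**
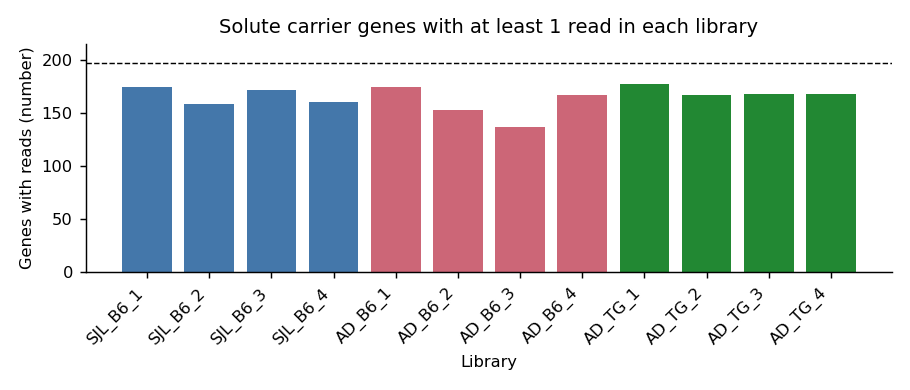
Number of the 197 genes with at least 1 read (vertical axis) in each of the 12 libraries (horizontal axis), with bars coloured by group and the dashed line at 197. AD_TG replicate 1 had the most, 177, and AD_B6 replicate 3 the fewest, 137.

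Levels often switched between libraries rather than varying smoothly. Of the 2364 values of the 197 genes, 51.3% lay between 100 and 1000 on the linear scale, 4.95% between 1 read and 10, and 16.5% below 1 read. All genes tested had 51.9%, 5.52% and 16.3% in these ranges. Of the 389 values below 1 read, 104 (26.7%) belonged to a gene whose median over the other 11 libraries was 100 or more, and 26 of these were in AD_B6 replicate 3. A single library lacked reads for 37 genes that had them in the other 11, and for 14 of these it was AD_B6 replicate 3. The SD over libraries had a median of 1.11 among the 78 genes with reads throughout and 3.27 among the other 119. For the 15 genes whose mean was at least 10 it was 0.711.

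The minimum divided genes with similar values. The 14 genes that reached 10 in exactly 4 libraries had a fourth-highest linear value of 10.5 (Slc5a10) to 89.5 (Slc38a5). The 22 that reached it in 3 libraries had a fourth-highest value of 0.05 to 9.18. Slc2a3, a glucose carrier of neurons, and Slc9a2, a sodium-proton exchanger, both stood at 9.18 just outside. Slc43a1, an amino acid carrier, at 11.8 and Slc28a3, a nucleoside carrier, at 11.3 stood just inside.

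On the deposited scale the highest carriers were Slc38a2 at 13.57 ± 0.55, Slc25a3 at 12.56 ± 0.24, Slc22a17 at 12.45 ± 1.14, Slc6a6 at 11.90 ± 0.54 and Slc47a1 at 11.84 ± 0.71. They serve different substrates: neutral amino acids, mitochondrial phosphate, an iron-binding protein that Slc22a17 takes up as a receptor, taurine, and organic cations. These values are not divided by transcript length, and in libraries made near transcript ends reads need not grow with length. The order per kilobase of the longest annotated transcript is therefore a second description and not a correction. By it, 8 of the 10 highest genes were the same. Slc25a4, with a transcript of 1925 bases, moved to second place at 10.83 behind Slc38a2 at 10.96 (both log2 per kilobase). The steadiest gene was Slc25a3, which ran from 12.13 to 12.92 over the 12 libraries.

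**Figure D2:**
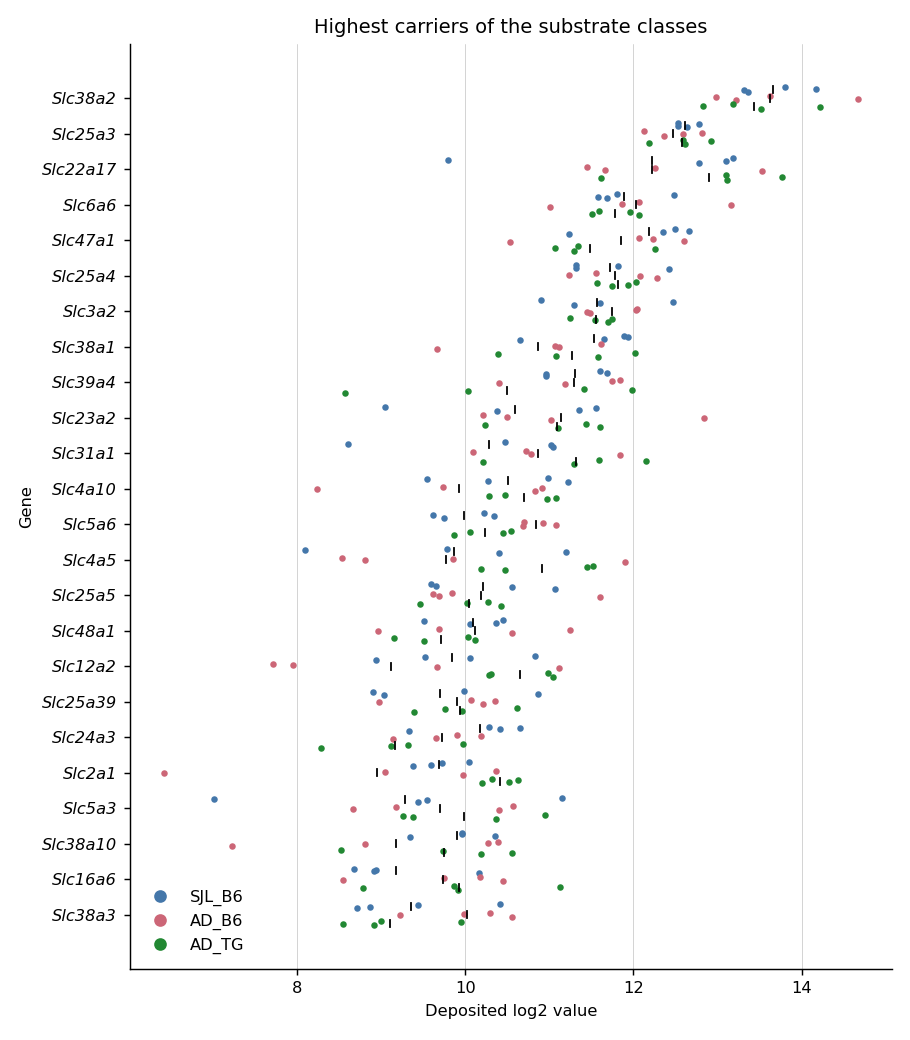
Deposited log2 values (horizontal axis) of the 24 highest genes among those named as the highest of their substrate class, 1 point per library coloured by group, with a black bar at each group mean. Slc38a2 at the top ran from 12.83 to 14.67, and Slc2a1 had 1 low value, 6.42, in AD_B6 replicate 3.

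Amino acid and peptide carriers numbered 31, of which 11 had reads in all 12 libraries. Their mean over members was 6.54 ± 0.57, and the groups overlapped. The system A and system N carriers of glutamine and other neutral amino acids led the class: Slc38a2, Slc38a1 at 11.22 ± 0.71 and Slc38a3 at 9.49 ± 0.71, with their relative Slc38a10 at 9.61 ± 0.98. Slc38a2 stood at 13.80, 14.17, 13.32 and 13.36 across SJL_B6 replicates 1 to 4, 13.62, 12.98, 14.67 and 13.22 across AD_B6, and 13.19, 12.83, 14.22 and 13.52 across AD_TG. The 3 groups covered the same range, and AD_B6 replicate 3 was highest.

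Slc3a2 encodes the heavy chain 4F2hc, which carries the light chains of the SLC7 family to the membrane. It stood at 10.90, 12.47, 11.61 and 11.30 across SJL_B6 replicates 1 to 4, 12.04, 12.03, 11.44 and 11.48 across AD_B6, and 11.25, 11.74, 11.55 and 11.70 across AD_TG. Its light chain Slc7a5, the large neutral amino acid carrier of brain endothelium, stood at 8.98, 7.25, 6.84 and 7.44 across SJL_B6 replicates 1 to 4, 8.47, 7.64, 3.23 and 6.38 across AD_B6, and 7.90, 8.24, 4.85 and 8.78 across AD_TG. The heavy chain varied little (SD 0.417) whereas Slc7a5 stood as low as 3.23 in AD_B6 replicate 3 and 4.85 in AD_TG replicate 3. Of the other light chains, Slc7a8 stood at 8.95 ± 0.88 with reads in all 12 and Slc7a6 at 4.79 ± 3.25 with reads in 9. Slc7a2, a cationic amino acid carrier of the same family that needs no heavy chain, stood at 8.44 ± 2.76 with reads in 11. Slc38a5, a glutamine carrier of brain endothelium, had reads in 5 libraries, at 8.26, below 1 read, below 1 read and 2.96 across SJL_B6 replicates 1 to 4, 7.17, below 1 read, 8.14 and below 1 read across AD_B6, and below 1 read, below 1 read, 6.50 and below 1 read across AD_TG. Peptide carriers were Slc15a4 at 8.52 ± 0.63 and Slc15a3, both of the endolysosome, and Slc15a2 of the plasma membrane at 7.61 ± 1.47. Slc15a3 stood at 6.15, 7.54, 7.54 and 8.65 across SJL_B6 replicates 1 to 4, 6.23, 8.49, below 1 read and 9.38 across AD_B6, and 6.49, 8.74, 8.65 and 7.85 across AD_TG, 6.15 or more in 11 libraries and below 1 read in AD_B6 replicate 3.

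Slc7a11, the cystine-glutamate exchanger that supplies cystine for glutathione, is shown with its promoter because its start is preceded by a pair of matches to the amino acid response motif, the letters TGATGNAA read on both strands, which stress-induced ATF4 binds. It stood at 8.29, 6.85, 9.27 and 7.44 across SJL_B6 replicates 1 to 4, 3.62, 5.11, 9.17 and 8.70 across AD_B6, and 7.62, 6.31, 9.68 and 8.01 across AD_TG. The values ran from 3.62 in AD_B6 replicate 1 to 9.68 in AD_TG replicate 3 and the groups overlapped. Of 153 of the 197 genes with an entry in the RefSeq promoter table (GRCm38.p6), 4 had a match in the 250 bases before a start: Slc7a11, Slc7a7, Slc50a1 and Slc9a9. That is 2.61%, against 3.91% of all 27025 genes in the table and 2.47% of the 9078 tested genes in it. The window below covers chr3:50443630-50443689 on the minus strand, with the 2 matches in capitals, 66 and 47 bases before the start.
Slc7a11: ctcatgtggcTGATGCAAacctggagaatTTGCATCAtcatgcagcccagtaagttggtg

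Carriers of glucose and other sugars numbered 12, with a class mean of 5.86 ± 0.96. Slc2a1, the glucose carrier of brain endothelium and many other cells, and Slc5a3, a sodium-coupled carrier of the osmolyte myo-inositol, stood highest, at 9.68 ± 1.13 and 9.66 ± 1.14. Slc2a1 stood at 10.05, 9.72, 9.59 and 9.37 across SJL_B6 replicates 1 to 4, 10.37, 9.04, 6.42 and 9.98 across AD_B6, and 10.32, 10.63, 10.52 and 10.20 across AD_TG. All AD_TG values lay above all SJL_B6 values, whereas the AD_B6 values spanned both. Slc5a3 shares exonic bases with Mrps6 on the same strand, so its reads cannot be separated from those of Mrps6 with certainty. Slc37a2, a sugar phosphate exchanger, stood at 7.43 ± 1.71, Slc45a4 at 8.21 ± 1.52, the intracellular Slc2a8 at 6.88 ± 2.73 and Slc2a12 at 5.56 ± 3.46 with reads in 9 libraries. The other members, Slc2a13, Slc37a1, Slc37a3, Slc37a4, Slc50a1 and Slc5a10, had means of 1.98 to 5.31 and reads in 4 to 11 libraries.

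Carriers of inorganic ions were the largest class, with 62 genes, 31 of them with reads in all 12 libraries. The class mean of 7.15 ± 0.40 was the highest of the 8 substrate classes. Its highest members move metals: Slc39a4, a zinc importer, at 11.03 ± 0.97 and Slc31a1, the copper importer, at 10.82 ± 0.94. Slc31a1 stood at 10.48, 8.61, 11.02 and 11.05 across SJL_B6 replicates 1 to 4, 10.72, 10.09, 10.78 and 11.84 across AD_B6, and 11.59, 12.16, 10.21 and 11.29 across AD_TG. The lowest value was in SJL_B6 replicate 2, a library low in choroid plexus markers. The other library low in them, AD_B6 replicate 1, stood at 10.72, above AD_B6 replicate 2 and AD_TG replicate 3.

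Bicarbonate carriers and the sodium-potassium-chloride cotransporter Slc12a2 take part in the secretion of cerebrospinal fluid by the choroid plexus. Slc4a10, a sodium-coupled bicarbonate carrier, stood at 10.99, 9.55, 10.27 and 11.22 across SJL_B6 replicates 1 to 4, 9.74, 10.91, 8.24 and 10.83 across AD_B6, and 10.47, 10.28, 11.08 and 10.97 across AD_TG. Slc4a5, a bicarbonate carrier of the same epithelium, stood at 9.79, 8.10, 11.20 and 10.40 across SJL_B6 replicates 1 to 4, 8.53, 9.86, 8.81 and 11.90 across AD_B6, and 11.52, 11.44, 10.19 and 10.48 across AD_TG. Slc12a2 stood at 10.83, 9.52, 10.06 and 8.94 across SJL_B6 replicates 1 to 4, 7.71, 7.95, 9.67 and 11.12 across AD_B6, and 10.99, 10.31, 10.28 and 11.04 across AD_TG. All 3 had reads in every library. Slc12a2 was lowest in AD_B6 replicates 1 and 2, and Slc4a5 was lowest in SJL_B6 replicate 2 and AD_B6 replicate 1. Slc13a4, a sulfate carrier, stood at 9.61, 8.73, 9.35 and 10.03 across SJL_B6 replicates 1 to 4, 9.15, 6.82, 9.29 and 9.51 across AD_B6, and 8.68, 9.89, 8.84 and 10.34 across AD_TG, with 1 low value in AD_B6 replicate 2.

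Iron and calcium carriers differed from gene to gene in level and in spread over the libraries. Slc40a1, the iron exporter ferroportin, stood at 8.46, 4.94, 7.80 and 5.83 across SJL_B6 replicates 1 to 4, 7.11, 6.61, 7.83 and 8.46 across AD_B6, and 8.50, 3.25, 9.33 and 4.31 across AD_TG. Slc11a1, the divalent metal carrier of phagosomes in macrophages, stood at 7.89, 8.19, 2.63 and 7.82 across SJL_B6 replicates 1 to 4, 8.98, 6.94, 2.55 and 5.63 across AD_B6, and 6.00, 7.88, 7.98 and 7.38 across AD_TG. The low values of Slc40a1, 3.25 to 5.83, were in SJL_B6 and AD_TG, and those of Slc11a1 below 3 were 1 each in SJL_B6 and AD_B6. The groups overlapped for both genes. Among sodium-calcium exchangers, Slc24a3 stood at 9.69 ± 0.68, Slc8a3 at 8.14 ± 1.83 and Slc8a1 at 7.61 ± 2.36, the last with 0.82 in AD_TG replicate 2. The neuronal chloride exporter Slc12a5 stood at 9.33 ± 0.95 with reads in all 12 libraries.

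Organic anion carriers numbered 17 and had the second-lowest class mean, 5.32 ± 0.85. Monocarboxylate carriers of the SLC16 family led: Slc16a6 at 9.61 ± 0.82, Slc16a11 at 8.98 ± 2.13 and Slc16a9 at 8.71 ± 1.13. Slc16a6 shares exonic bases with Amz2 and Arsg on the opposite strand, and the sources used here do not say whether strand was counted. Slc16a1, which carries lactate in endothelium, stood at 8.82, 8.25, 7.42 and 5.02 across SJL_B6 replicates 1 to 4, 9.49, below 1 read, below 1 read and 5.63 across AD_B6, and 7.65, below 1 read, 7.35 and 7.66 across AD_TG, with reads in 9 libraries.

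The organic anion exchangers Slc22a8 and Slc22a6 remove acidic metabolites and drugs. Slc22a8, which is known from choroid plexus, brain endothelium and kidney, stood at 9.72, 7.50, 7.76 and 9.63 across SJL_B6 replicates 1 to 4, 7.96, 7.31, 2.86 and 9.60 across AD_B6, and 8.90, 9.34, below 1 read and 8.03 across AD_TG. Slc22a6, which is known from kidney and meningeal fibroblasts, stood at 7.82, below 1 read, 7.43 and 5.19 across SJL_B6 replicates 1 to 4, 7.68, below 1 read, below 1 read and below 1 read across AD_B6, and below 1 read, below 1 read, 5.29 and below 1 read across AD_TG. Slc22a8 had reads in 11 libraries and Slc22a6 in 5, 3 of them in SJL_B6.

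Carriers of the SLC25 family, all classed here as mitochondrial, numbered 32, with a class mean of 6.69 ± 0.54 and reads in all 12 libraries for 14. The phosphate carrier Slc25a3, the ADP-ATP exchangers Slc25a4 at 11.77 ± 0.39 and Slc25a5 at 10.15 ± 0.66, and Slc25a39, a glutathione carrier, at 9.85 ± 0.65 stood highest. The iron importer mitoferrin 1, Slc25a37, which is abundant in red cell precursors, stood at 7.66, 2.18, 7.88 and 7.36 across SJL_B6 replicates 1 to 4, below 1 read, 8.05, below 1 read and 7.55 across AD_B6, and 7.90, 1.73, 7.65 and 9.16 across AD_TG. It had high and low libraries in every group, and its paralogue mitoferrin 2, Slc25a28, is given with the group comparisons.

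The other classes were smaller. Carriers of nucleosides, nucleotides and nucleotide sugars numbered 11 and had the lowest class mean, 5.29 ± 1.06, led by the lysosomal Slc29a3 at 8.10 ± 1.09, Slc29a1 at 7.56 ± 2.55 and the Golgi carriers Slc35a1 at 6.58 ± 2.25 and Slc35a2 at 6.50 ± 3.18. Carriers of organic cations, amines and neurotransmitters numbered 14 and averaged 6.65 ± 0.63. The taurine carrier Slc6a6 led them, with the GABA carrier Slc6a11 at 9.42 ± 1.46 and the creatine carrier Slc6a8 at 8.87 ± 1.03. The multidrug and toxin exporter Slc47a1, which is known from kidney, liver and meningeal fibroblasts, stood at 12.50, 12.67, 12.36 and 11.23 across SJL_B6 replicates 1 to 4, 12.07, 12.23, 12.60 and 10.53 across AD_B6, and 11.34, 11.06, 12.26 and 11.30 across AD_TG. Slc47a1 was thus 10.53 or more in every library. Slc17a7, the vesicular glutamate carrier of neurons, stood at 5.77, 8.48, 6.50 and 7.45 across SJL_B6 replicates 1 to 4, 6.86, 8.04, below 1 read and 8.89 across AD_B6, and 5.54, 0.82, 7.48 and 5.67 across AD_TG. It had reads in 11 libraries. Of the neuronal markers, Snap25 averaged 10.26 ± 1.28 and Syt1 10.19 ± 1.09 over the 12 libraries, and Rbfox3 was listed at 0 in all of them.

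Carriers of vitamins, lipids and cofactors numbered 12 and averaged 6.55 ± 0.69. Slc23a2, a vitamin C carrier, at 10.94 ± 0.95, Slc5a6, a carrier of biotin and pantothenate, at 10.35 ± 0.47, and the haem carrier Slc48a1 at 9.97 ± 0.65 stood highest. The folate carrier Slc19a1 stood at 7.47 ± 2.19. The 2 carriers put in no class were Slc22a17, with its lowest value of 9.80 in SJL_B6 replicate 2 against 11.45 or more in the other libraries, and Slc22a23 at 5.06 ± 3.41. The 4 genes that are not carriers averaged 7.11 ± 1.33.

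**Figure D3:**
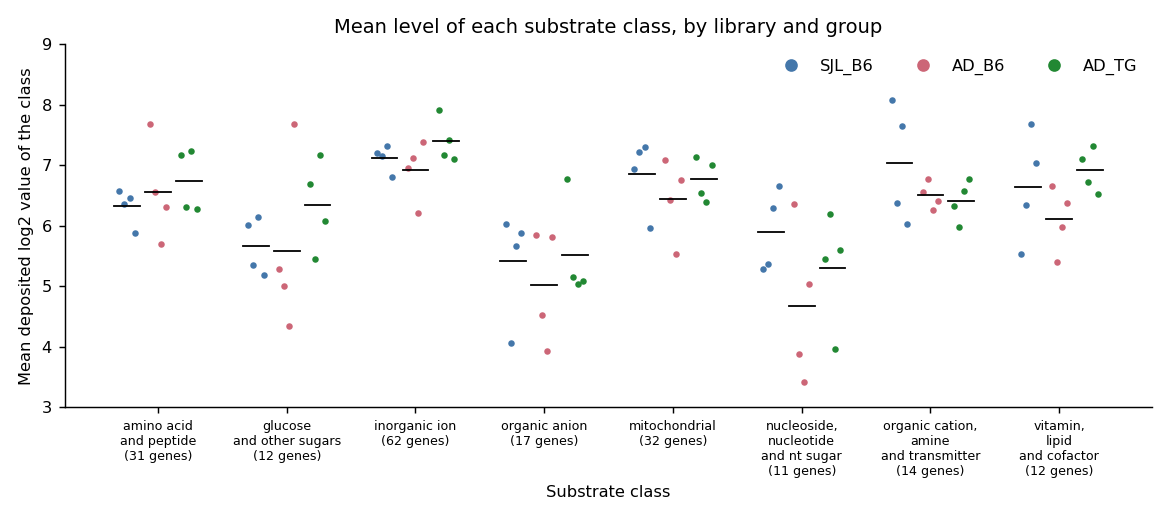
Mean deposited log2 value over the members of each of 8 substrate classes (vertical axis), with 1 point per library coloured by group and a black bar at each group mean. The groups overlap in every class, and the inorganic ion class has the highest mean, 7.15.

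The class means of the groups overlapped in all 8 substrate classes. For inorganic ions they were 7.12 ± 0.219 in SJL_B6, 6.92 ± 0.502 in AD_B6 and 7.40 ± 0.367 in AD_TG. For nucleosides, nucleotides and nucleotide sugars they were 5.90 ± 0.675, 4.67 ± 1.31 and 5.30 ± 0.951. AD_B6 replicate 3, the library with the fewest genes, was the lowest of the 12 in 8 of 10 classes when those without a substrate class are included. The number of genes with reads moved with the class means in that library, and its part in them was not tested.

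Carriers of metals and of biotin (Slc39a14 and Slc5a6) stood higher in all 4 AD_B6 libraries than in any SJL_B6 library, and the scaffold gene Slc9a3r2 stood lower, but no carrier passed the test across all genes. The comparison of AD_B6 with SJL_B6 concerns what goes with the AD label, though the SJL label changes as well and the 2 cannot be told apart. No gene of the 197 passed an adjusted p below 0.05 in limma (Benjamini-Hochberg over the 11955 genes, background 0% called), and the lowest adjusted p among them was 0.869. At an unadjusted p below 0.05, 8 of the 197 stood higher (4.06%, background 1.36%) and 4 lower (2.03%, background 4.05%), and no other tool was run. After centring these were 16 (8.12%, all genes 3.50%) and 4 (2.03%, all genes 2.39%). After quantile normalization they were 11 (5.58%, all genes 2.01%) and 4 (2.03%, all genes 2.94%). Among the 64 genes that reached 10 in all 12 libraries, 1 stood higher (1.56%) and 0 lower. Of all 3972 genes that did so, 1.84% stood higher and 2.62% lower. All of these are counts, with no test of the list. Among the 8 higher genes, Slc7a1, Slc1a4 and Slc19a2 met the minimum only with the help of the AD_B6 libraries, where they were high. The filter thus had a part in the number of higher genes, and the count is a description. All 4 values lay above those of SJL_B6 for 3 genes (background 0.912%) and below them for 1 (background 1.91%). The median 95% interval of a difference reached 3.60 log2 units to either side, so most differences below that size lay within the error. The median difference was -0.30 over the 197 and -0.31 over all genes tested, with 77 higher and 120 lower, which became 105 higher and 92 lower when each library was centred on its mean and 88 and 109 after quantile normalization. Centring moved the median of all genes to 0.16.

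The 3 genes with higher values in all AD_B6 libraries were Slc7a1, Slc39a14 and Slc5a6. Slc7a1, a carrier of arginine and lysine, stood below 1 read in all 4 SJL_B6 replicates, 8.37, 8.04, 3.69 and 8.16 across AD_B6, and 8.27, below 1 read, 3.04 and 6.24 across AD_TG. It was below 1 read in all 4 SJL_B6 libraries and had reads in all 4 AD_B6 libraries, and it did not pass (limma, adjusted p = 0.869). It met the minimum in the 4 AD_B6 libraries and 2 others, so it was kept only through the group where it was high and its values are a description. AD_TG held both kinds of value. Slc39a14, an importer of zinc, manganese and iron, stood at below 1 read, 6.80, 7.30 and 0.88 across SJL_B6 replicates 1 to 4, 8.50, 7.46, 8.84 and 9.65 across AD_B6, and 5.88, 6.67, 7.02 and 7.09 across AD_TG. The AD_B6 values were the highest of the 3 groups, with a difference of 4.87 ± 1.81 (SE) from SJL_B6 (limma, adjusted p = 0.869). The SJL_B6 values fell into 2 near 7 and 2 below 1. Slc5a6 stood at 10.22, 9.62, 10.34 and 9.75 across SJL_B6 replicates 1 to 4, 10.69, 10.92, 11.08 and 10.69 across AD_B6, and 10.55, 10.05, 10.45 and 9.87 across AD_TG, a difference of 0.87 ± 0.44 (limma, adjusted p = 0.869). The 4 AD_B6 libraries were the highest of the 12 here too. Slc5a6 shares exonic bases with Atraid on the opposite strand.

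The gene with lower values throughout AD_B6 than in SJL_B6 was the scaffold gene Slc9a3r2, which is no carrier, at 10.22, 8.47, 9.66 and 9.18 across SJL_B6 replicates 1 to 4, 7.64, 7.83, 8.09 and 6.81 across AD_B6, and 7.73, 4.18, 8.22 and 9.16 across AD_TG. Its difference was -1.79 ± 1.02 (limma, adjusted p = 0.869). Among genes with a mean of 5 or more, the smallest unadjusted p belonged to Slc35a2 and Slc30a7, whose groups overlapped. Slc35a2, the Golgi carrier of UDP-galactose, stood at 10.05, 7.48, 7.98 and 9.11 across SJL_B6 replicates 1 to 4, 7.79, 4.75, below 1 read and 1.22 across AD_B6, and 7.72, 9.98, 6.11 and 5.80 across AD_TG. Slc30a7, a zinc carrier of the Golgi, stood at 9.27, 9.80, 9.08 and 7.06 across SJL_B6 replicates 1 to 4, 8.52, 4.40, below 1 read and 4.46 across AD_B6, and 7.58, 10.45, 9.81 and 6.36 across AD_TG. Both were 7.06 or more in every SJL_B6 library and below 1 read in AD_B6 replicate 3, with differences of -5.21 ± 1.78 and -4.46 ± 1.53 (limma, both adjusted p = 0.869). Slc39a11, a zinc importer, went the other way at 1.14, 9.70, below 1 read and 2.39 across SJL_B6 replicates 1 to 4, 6.48, 9.64, 7.91 and 6.98 across AD_B6, and 8.29, 9.62, 7.66 and 8.01 across AD_TG, where 3 SJL_B6 libraries stood at 2.39 or less. The differences of Slc25a28 and Slc9a3r1 were 2.98 and -3.83, neither of which passed.

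On the deposited scale the median difference was below 0 in all 8 substrate classes, as over all genes, and it was above 0 in 5 of them after centring and in 1 after quantile normalization. Of the 62 inorganic ion genes 23 were higher in AD_B6 (34 after centring, 29 after quantile normalization), of the 31 amino acid genes 13 (17 and 15), of the 12 sugar genes 5 (6 and 6) and of the 17 organic anion genes 8 (9 and 8). Of the 11 nucleoside and nucleotide genes 3 were higher (5 and 4), with a median difference of -2.13 that stayed below 0 at -1.66 and -1.06 under the 2 scalings. Over all genes tested, 40.2% were higher in AD_B6 (54.8% after centring, 47.7% after quantile normalization). Leaving out AD_B6 replicate 3 gave 93 higher and 104 lower over all 197.

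**Figure D4:**
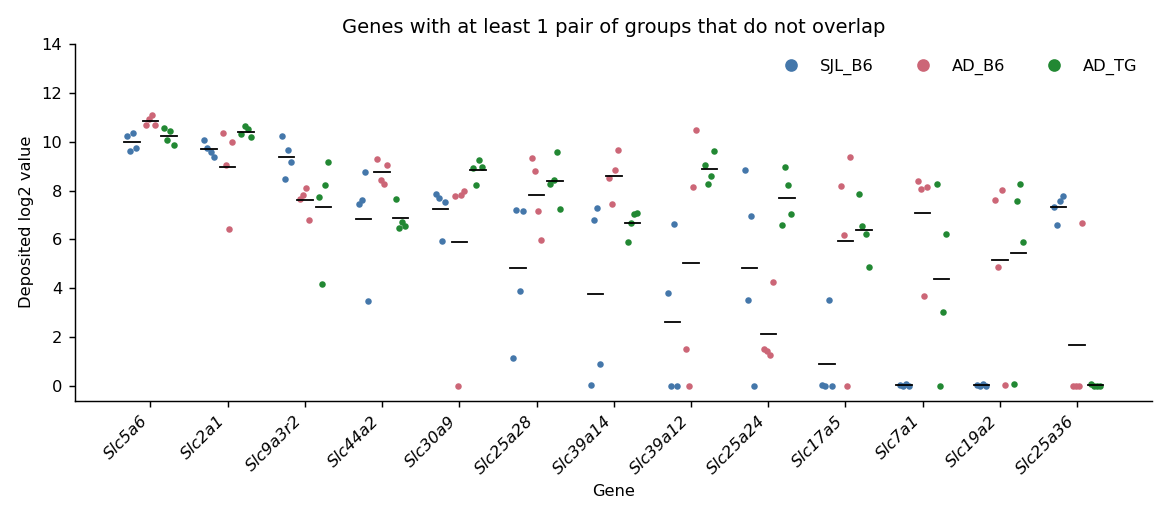
Deposited log2 values (vertical axis) of the 13 genes for which all 4 libraries of a group lie above or below all 4 of another, with 1 point per library coloured by group and a black bar at each group mean. The 4 AD_B6 values of Slc5a6, 10.69 to 11.08, lie above those of both other groups, and Slc7a1 is below 1 read in all 4 SJL_B6 libraries.

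Between AD_TG and AD_B6, the mitochondrial carriers Slc25a24 and Slc30a9 stood higher in all AD_TG libraries, and Slc39a14, Slc5a6 and the choline carrier Slc44a2 lower, none of them past the test. AD_TG and AD_B6 share the AD label and differ in the last part of their names, TG or B6, which is not spelled out. This comparison uses the same AD_B6 libraries as the one above. Again no gene of the 197 passed in limma (lowest adjusted p 0.871, background 0%). At an unadjusted p below 0.05, 9 stood higher (4.57%, background 4.34%) and 2 lower (1.02%, background 1%). After centring this turned round to 4 higher (2.03%, all genes 1.94%) and 9 lower (4.57%, all genes 4.34%). After quantile normalization the counts were 4 higher (2.03%, all genes 2.55%) and 3 lower (1.52%, all genes 1.86%). For 2 genes all AD_TG values lay above AD_B6 (background 1.95%) and for 3 below (background 0.928%), and after centring for 1 above and 6 below (all genes 0.836% and 3.38%). The median difference was 0.33 over the 197 and 0.41 over all genes tested, with 119 higher and 78 lower, which turned to 81 and 116 after centring and 98 and 99 after quantile normalization. It turned to 96 higher and 101 lower without AD_B6 replicate 3.

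Slc25a24 and Slc30a9 were the 2 with higher values in all AD_TG libraries. Slc25a24, a calcium-regulated mitochondrial carrier of ATP and phosphate, stood at 8.85, 3.54, 6.94 and below 1 read across SJL_B6 replicates 1 to 4, 1.52, 1.41, 1.25 and 4.27 across AD_B6, and 6.58, 8.95, 8.25 and 7.04 across AD_TG. Its difference was 5.59 ± 2.31 (limma, adjusted p = 0.871), and SJL_B6 overlapped both groups. Slc30a9, a zinc carrier of mitochondria, stood at 7.84, 7.69, 5.93 and 7.54 across SJL_B6 replicates 1 to 4, 7.79, below 1 read, 7.82 and 7.99 across AD_B6, and 8.93, 8.21, 9.27 and 8.98 across AD_TG. AD_TG lay above both other groups, by 2.95 ± 1.49 over AD_B6 (limma, adjusted p = 0.871), although 3 of the 4 AD_B6 values, 7.79 to 7.99, were close to the lowest AD_TG value of 8.21.

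Slc39a14, Slc5a6 and Slc44a2 had lower values in all AD_TG libraries than in AD_B6. For Slc39a14 and Slc5a6 the values given above differ by -1.95 ± 1.81 and -0.62 ± 0.44 (limma, adjusted p = 0.895 and 0.874), against the same AD_B6 libraries that stood above SJL_B6. Slc44a2, a choline carrier, stood at 7.44, 7.59, 8.77 and 3.48 across SJL_B6 replicates 1 to 4, 9.27, 8.42, 8.27 and 9.04 across AD_B6, and 7.67, 6.48, 6.71 and 6.56 across AD_TG. The AD_B6 values were 8.27 to 9.27 and the AD_TG values 6.48 to 7.67, with a difference of -1.90 ± 1.20 (limma, adjusted p = 0.871).

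Slc2a1 and Slc12a2, both known from barrier tissues, were also named by the order of p in the same comparison. Slc2a1 averaged 10.42 ± 0.194 in AD_TG and 8.95 ± 1.78 in AD_B6, a difference of 1.46 ± 0.68. Slc12a2 averaged 10.65 ± 0.417 and 9.11 ± 1.60, a difference of 1.54 ± 0.66. Neither passed (limma, adjusted p = 0.871 for both), and AD_B6 replicate 4 stood above all AD_TG libraries for Slc12a2. Choroid plexus markers averaged 11.50 ± 0.89 in AD_TG and 10.35 ± 2.47 in AD_B6, and their part in the Slc12a2 values was not tested. Slc30a7 and Slc35a2 were 4.21 and 3.96 higher in AD_TG, against the same AD_B6 libraries in which both were low. The monocarboxylate carrier Slc16a11, the sodium-calcium exchanger Slc8a1, the zinc carrier Slc39a13 and the glutamine carrier Slc38a3 stood lower, by -2.60, -3.12, -2.50 and -0.92. None of the 4 passed. Slc16a11 stood at 9.65, 10.38, 9.05 and 8.93 across SJL_B6 replicates 1 to 4, 10.64, 9.19, 11.24 and 9.05 across AD_B6, and 10.15, 8.30, 2.84 and 8.41 across AD_TG, where AD_TG replicate 3 was far below the other 11 libraries. Slc39a13 shares exonic bases with Psmc3 on the opposite strand.

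By class, 37 of 62 inorganic ion genes were higher in AD_TG than in AD_B6 (28 after centring, 35 after quantile normalization), 17 of 31 amino acid genes (11 and 14), 9 of 12 sugar genes (7 and 7), 10 of 17 organic anion genes (7 and 8) and 20 of 32 mitochondrial carriers (9 and 15). Over all genes tested, 62.8% were higher (44.4% after centring, 52.7% after quantile normalization). The sugar class had more genes higher than lower under all 3 scalings, with medians of 1.001, 0.37 and 0.45, a description of 12 genes. None of its genes passed the test.

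In AD_TG the zinc importer Slc39a12, the glucose carrier Slc2a1 and 4 other genes stood above all SJL_B6 libraries, and none of these genes passed. AD_TG and SJL_B6 share neither part of their names, this comparison uses libraries of both comparisons above, and no gene of the 197 passed in limma (lowest adjusted p 0.999, background 0%). At an unadjusted p below 0.05, 6 stood higher (3.05%, background 1.84%) and 2 lower (1.02%, background 1.15%). With centring there were 6 higher (3.05%, all genes 1.422%) and 6 lower (3.05%, all genes 1.598%). With quantile normalization there were also 6 higher (3.05%, all genes 1.999%) and 6 lower (3.05%, all genes 1.798%). All AD_TG values lay above SJL_B6 for 6 genes (3.05%, background 1.46%) and below for 1 (0.508%, background 1.07%). The median difference was 0.15 over the 197 and 0.084 over all genes tested, with 105 higher and 92 lower, which became 98 and 99 after centring and 97 and 100 after quantile normalization.

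The 6 higher genes were Slc2a1, Slc30a9, Slc39a12, Slc25a28, Slc17a5 and Slc19a2. Slc39a12, a zinc importer, stood at 3.81, below 1 read, 6.63 and below 1 read across SJL_B6 replicates 1 to 4, 1.52, below 1 read, 8.16 and 10.46 across AD_B6, and 9.06, 8.27, 8.60 and 9.61 across AD_TG. It was 8.26 or more in all AD_TG libraries and below 1 read in 2 SJL_B6 and 1 AD_B6 libraries, with a difference of 6.27 ± 2.40 (limma, unadjusted p = 0.015, adjusted p = 0.999). AD_B6 replicates 3 and 4 matched the AD_TG level. Mitoferrin 2, Slc25a28, stood at 1.14, 7.20, 3.89 and 7.16 across SJL_B6 replicates 1 to 4, 9.34, 8.81, 7.17 and 5.97 across AD_B6, and 8.28, 8.44, 9.56 and 7.23 across AD_TG, a difference of 3.53 ± 1.49 (limma, adjusted p = 0.999). The SJL_B6 values ran from 1.14 to 7.20, just under the lowest AD_TG value of 7.23.

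Slc17a5, the lysosomal sialic acid exporter, stood at below 1 read, below 1 read, 3.51 and below 1 read across SJL_B6 replicates 1 to 4, 8.19, 6.17, below 1 read and 9.37 across AD_B6, and 7.88, 6.55, 6.23 and 4.89 across AD_TG. Slc19a2, a thiamine carrier, stood below 1 read in all 4 SJL_B6 replicates, 7.60, 4.88, 8.04 and below 1 read across AD_B6, and below 1 read, 7.59, 8.26 and 5.90 across AD_TG. For Slc19a2 the 4 SJL_B6 values and 1 AD_TG value, 0.073, were all below 1 read, so the lack of overlap rests on differences of less than 1 read. It met the minimum in 3 AD_TG and 3 other libraries, and so was also kept only with the help of the higher group. Slc2a1 and Slc30a9, given above, differed by 0.73 ± 0.68 and 1.60 ± 1.49, both less than the interval of the difference. The gene lower in AD_TG was Slc25a36, a mitochondrial carrier of pyrimidine nucleotides, at 7.33, 6.59, 7.57 and 7.79 across SJL_B6 replicates 1 to 4, below 1 read, below 1 read, below 1 read and 6.67 across AD_B6, and below 1 read in all 4 AD_TG libraries. It was 6.59 or more in all SJL_B6 libraries and below 1 read in all AD_TG libraries and 3 AD_B6 libraries, and it did not pass (limma, adjusted p = 0.999). It met the minimum in the 4 SJL_B6 libraries and 1 other, so it was kept only through the group where it was high and its values are a description. Other genes with small p and a mean of 5 or more were Slc39a11, Slc7a2 and Slc31a1, higher by 5.07, 2.78 and 1.02, and Slc39a13, Slc9a3r2, Slc16a11, Slc38a6 and Slc24a3, lower by -2.97, -2.06, -2.07, -4.19 and -1.001. By class, 34 of 62 inorganic ion genes, 16 of 31 amino acid genes, 9 of 12 sugar genes and 9 of 17 organic anion genes were higher (31, 15, 9 and 9 after centring, 32, 15, 6 and 9 after quantile normalization). Over all genes tested, 53.3% were higher (47.0% after centring, 50.7% after quantile normalization).

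The counts of separated genes changed when single libraries were left out. Leaving out 1 library at a time, so that 3 values face 4, raised the share among all genes as well. It gave 8 to 14 separated genes (4.06 to 7.11%, all genes 4.93 to 6.14%) in place of 4 for AD_B6 against SJL_B6, the most without SJL_B6 replicate 2. The range was 8 to 13 (4.06 to 6.60%, all genes 4.83 to 7.34%) in place of 5 for AD_TG against AD_B6, the most without AD_B6 replicate 1, and 10 to 17 (5.08 to 8.63%, all genes 4.83 to 5.56%) in place of 7 for AD_TG against SJL_B6, the most without SJL_B6 replicate 4. Centring the libraries gave 7, all higher in AD_B6, for the first comparison (3.55%, all genes 2.29% higher).

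Slc4a2, Slc4a5, Slc12a2 and Slc29a4 were ordered over the 12 libraries much as the markers of choroid plexus epithelium were. The list of 8 such carriers, with 6 each of macrophages and meningeal fibroblasts, was compared with the mean of the markers of that cell type, 20 pairs in all. Slc4a5 had r = 0.806 and rho = 0.825 (permutation test, two-sided, n = 12, adjusted p = 0.0062 and 0.0109). Without the 2 libraries low in choroid plexus markers its r was 0.618 (permutation, n = 10, adjusted p = 0.288), so the relation did not pass without them. Slc4a2, the chloride-bicarbonate exchanger of the basal membrane of that epithelium, had r = 0.658 and rho = 0.867 (permutation, n = 12, adjusted p = 0.058 and 0.0096). Its r was 0.866 without those libraries (permutation, n = 10, adjusted p = 0.0192). Slc4a2 stood at 10.40, 8.73, 10.27 and 9.64 across SJL_B6 replicates 1 to 4, 8.80, 8.50, 9.66 and 10.99 across AD_B6, and 10.72, 9.68, 8.26 and 10.36 across AD_TG. It was lowest in AD_TG replicate 3, AD_B6 replicate 2, SJL_B6 replicate 2 and AD_B6 replicate 1, and it shares exonic bases with Fastk on the opposite strand.

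Slc29a4, a carrier of monoamines, and Slc12a2 gave mixed results. Slc29a4 stood at 7.56, below 1 read, 10.13 and 8.37 across SJL_B6 replicates 1 to 4, below 1 read, 8.79, below 1 read and 8.65 across AD_B6, and 9.23, 8.70, 5.53 and 9.14 across AD_TG. Its r was 0.787 and its rho 0.725 (permutation, n = 12, adjusted p = 0.0499 and 0.0426), and r was 0.441 without the 2 libraries (permutation, n = 10, adjusted p = 0.729), so the relation rests on them. The gene was below 1 read in both, and in AD_B6 replicate 3. Slc12a2 had r = 0.567 and rho = 0.825 (permutation, n = 12, adjusted p = 0.121 and 0.0109), and r = 0.635 without the 2 libraries (permutation, n = 10, adjusted p = 0.288). Within groups, after each group's mean was removed, r was 0.794 for Slc4a5, 0.699 for Slc4a2, 0.823 for Slc29a4 and 0.567 for Slc12a2. Slc4a10, Slc13a4, Slc16a8 and Slc15a2 did not pass in either measure, with rho of 0.119, 0.399, 0.176 and 0.0839.

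**Figure D5:**
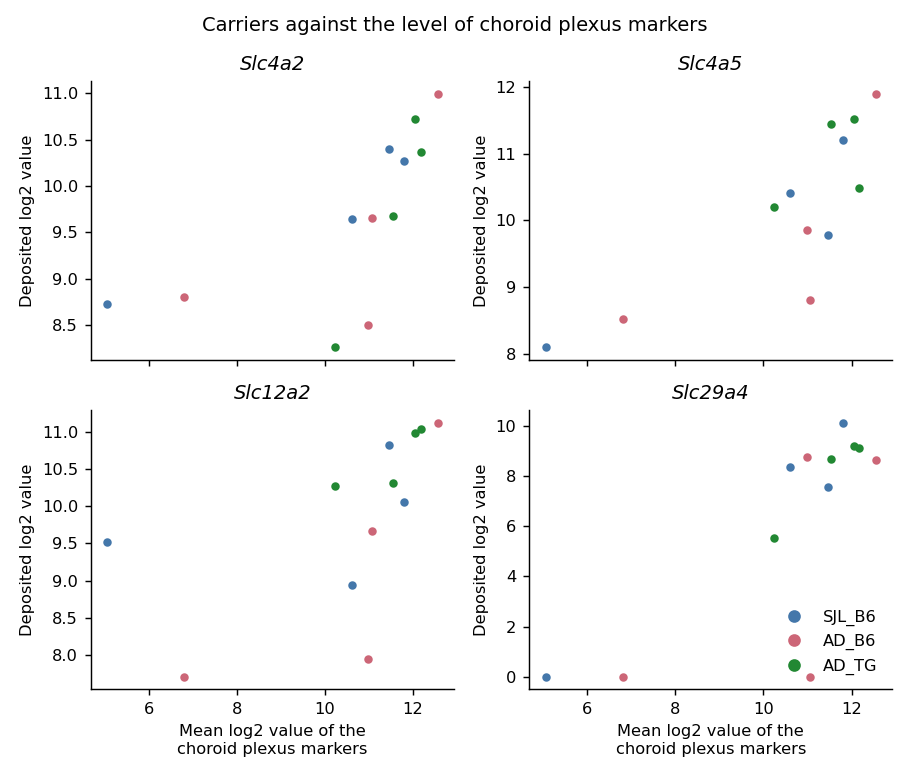
Deposited log2 values of Slc4a2, Slc4a5, Slc12a2 and Slc29a4 (vertical axes) against the mean log2 value of 7 choroid plexus markers (horizontal axes), 1 point per library coloured by group. The 2 points at the left, at 5.06 and 6.81, are SJL_B6 replicate 2 and AD_B6 replicate 1, and among the other 10 Slc4a2 is higher where the markers are higher (r = 0.866).

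The marker list behind these values had reads for all 7 genes in AD_TG. Its summed linear level was 14954 to 384355 among SJL_B6 libraries, 19751 to 619700 among AD_B6 and 104497 to 443233 among AD_TG. Ttr, its most abundant gene, stood at 13.38 and 13.92 in the 2 low libraries and at 16.59 to 19.18 in the others. Kcnj13 and Kcne2 were listed at 0 in both low libraries and Folr1 in SJL_B6 replicate 2, whereas Otx2 stood at 10.28 to 11.90 throughout. The highest Otx2 values, 11.90 in SJL_B6 replicate 2 and 11.83 in AD_B6 replicate 1, were in the low libraries. The 2 low libraries held an estimated 9296286 and 6766153 reads, against 4022407 to 9307807 in the other 10. Among the other pairs, Slc7a11 was compared with the mean of 6 meningeal fibroblast markers (Slc6a13 left out), with r = 0.719 and rho = 0.797 (permutation, n = 12, adjusted p = 0.058 and 0.0155), and r = 0.651 without the 2 libraries farthest from the median (permutation, n = 10, adjusted p = 0.288). None of the 6 macrophage pairs passed, Slc11a1 and Slc15a3 included (r = -0.0917 and -0.344), nor did the other 5 fibroblast carriers, among them Slc47a1 (r = 0.00779), by adjusted p of r or rho.

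The bases before the starts of these carriers are shown because Slc4a2, Slc4a5 and Slc29a4 were compared with the same markers. Slc39a12 is shown because its promoter holds a match to the motif of the OTX and CRX factors. Both Otx2 and Crx, the latter at 8.78 ± 1.70, had reads in all 12 libraries, and which of them acts here was not tested. The motifs searched on both strands in the 250 bases before a start were TAATCC for OTX and CRX and GGGCGG for the GC box. Each overlapping match was counted. TAATCC was in 7 of the 153 matched genes (4.58%), against 7.21% of all genes in the table and 6.52% of the tested genes in it. The 7 were Slc15a4, Slc22a6, Slc24a4, Slc29a1, Slc30a6, Slc39a12 and Slc46a3, and neither Slc4a2, Slc4a5 nor Slc29a4 had these letters in the window. GGGCGG was in 65.4% of the matched genes, against 35.4% of all genes and 64.3% of the tested genes. Each window gives the 60 bases before the start on the plus strand of GRCm38.p6, with matches in capitals: TAATCC for Slc39a12 (chr2:14388338-14388397) and GGGCGG for the others (Slc4a5 at chr6:83237315-83237374, Slc29a4 at chr5:142702041-142702100, and the first of the 2 starts of Slc4a2 at chr5:24425172-24425231, without a match). Of these 60 bases 46.7% were G or C in Slc39a12, 76.7% in Slc4a5 and Slc29a4 and 78.3% in Slc4a2, against a median of 55% over 32851 promoters.
Slc39a12: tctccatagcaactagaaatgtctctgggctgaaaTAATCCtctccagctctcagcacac
Slc4a5: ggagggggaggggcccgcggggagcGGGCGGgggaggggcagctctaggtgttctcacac
Slc29a4: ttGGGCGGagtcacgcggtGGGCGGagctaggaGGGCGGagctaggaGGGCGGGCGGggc
Slc4a2: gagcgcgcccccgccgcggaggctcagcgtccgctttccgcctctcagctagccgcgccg

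Transporters outside the name pattern, among them Slc35 genes of other letters and the Slco genes, were read together with genes that work with carriers. Of 36 such genes, 33 could be tested and none passed in limma in any of the 3 comparisons (lowest adjusted p 0.869, 0.871 and 0.999). At an unadjusted p below 0.05, 0 of 33 stood out for AD_B6 against SJL_B6, 2 were higher for AD_TG against AD_B6 (Aqp1 and Atp1b3) and 2 lower for AD_TG against SJL_B6 (Slco2b1 among them). Over all genes tested these shares were 4.34% and 1.15%, and no test of the list was run. Atp1b1, a beta subunit of the sodium pump, which supplies the gradient for sodium-coupled carriers, stood at 12.78 ± 0.70. Bsg, the glycoprotein basigin that brings monocarboxylate carriers to the membrane, stood at 11.78 ± 0.60. The choroid plexus water channel Aqp1 stood at 10.13 ± 1.07. Among organic anion carriers of the SLCO families, Slco1c1, a thyroid hormone carrier of brain endothelium and choroid plexus, stood at 9.09 ± 1.39 and Slco2b1 at 8.53 ± 2.78. The mitochondrial pyruvate carrier subunits Mpc1 and Mpc2 stood at 6.64 ± 1.49 and 9.50 ± 0.82. Mfsd2a, a lipid carrier of brain endothelium, had reads in 2 libraries, and the exporter Abcb1a, P-glycoprotein, stood at 8.47 ± 2.74.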

How the data were processed

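Each of the 12 files that the authors deposited holds log2 values of a scaled expression amount plus 1, a scale read from the values and not stated, for 23282 entries, of which 44 repeat a symbol and were dropped. Per the submitters' processing notes Bowtie2 and bedtools were used, with no versions, and the build is given as hg19, a human build. The counting rule, strand and scaling are not given in the sources used here. Reads per library were estimated from the spacing of the low values (tolerance 0.15 of a step) and cover counting error only.

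The members, substrate classes and lists were chosen with earlier results of these data known. The class of Slc4a1ap was moved to "not a carrier" after its values were seen. Differences were tested on the deposited log2 values with limma 3.58.1 (R 4.3.3) over 11955 genes and all 12 libraries, with no covariate and Benjamini-Hochberg adjustment. Promoters came from the RefSeq table, without chromosome 18. Only the limma step was tested beforehand, on the deposited values shuffled within each gene with known shifts added to some genes. Correlations used 100000 permutations (scipy 1.17.1). Genes named were the 4 highest of each class (6 for amino acids, sugars, ions and organic anions), the 5 with the smallest p per comparison and direction at a mean of 5 or more, a list of barrier carriers, and those at the limit. Genes whose groups did not overlap, genes compared with cell type markers and a few named to complete a family were added after their values were seen. A few genes that the rule names are not reported here. Alternatives covered the pseudocount, low-value filters, centring, quantile normalization, the replicate block, only the 8 libraries compared and leaving out each library.

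Same-numbered libraries deviated together little (correlations of -0.015 to 0.067, the own number highest in 3 of 12), so the numbers were not treated as pairs.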

Additional observations from a re-analysis of the deposited data

Results flagged for a closer look

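In 18 of 135 groups of 4 libraries examined (13.3%), 1 library stood far from the other 3. For normally spread values chance gives about 1 in 20, but these values often switch between below 1 read and high. Some of the genes were also chosen because their groups did not overlap. The share is therefore a description. Some of these are genes with reads in a single library of a group, more are genes low in 1 library, and none was given a cause. AD_TG replicate 1 had 177 of the 197 genes with reads against 167 to 168 in the other AD_TG libraries, and its organic anion mean was 6.77 against 5.03 to 5.15.

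Some genes were low in 1 library. In SJL_B6, Slc11a1 stood at 2.63 in replicate 3 (others 7.82 to 8.19), Slc30a9 at 5.93 in replicate 3 (others 7.54 to 7.84) and Slc25a37 at 2.18 in replicate 2 (others 7.36 to 7.88). In AD_B6, Slc13a4 stood at 6.82 in replicate 2 (others 9.15 to 9.51), Slc30a9 at 0 in replicate 2 (others 7.79 to 7.99) and Slc7a1 at 3.69 in replicate 3 (others 8.04 to 8.37). In AD_TG, Slc16a1 stood at 0 in replicate 2 (others 7.35 to 7.66), while Slc22a8 at 0.003 and Slc29a4 at 5.53 were low in replicate 3 (others 8.03 to 9.34 and 8.70 to 9.22).

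Others were high in 1 library. Slc17a5 stood at 3.51 in SJL_B6 replicate 3, Slc22a6 at 7.68 in AD_B6 replicate 1 and 5.29 in AD_TG replicate 3, Slc38a5 at 6.50 in AD_TG replicate 3 and Slc25a36 at 6.67 in AD_B6 replicate 4, each with the rest of its group below 1 read. Slc25a24 stood at 4.27 in AD_B6 replicate 4 (others 1.25 to 1.52). Slc25a36 at 0.073 in AD_TG replicate 1 is itself below 1 read.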

How the results depend on the processing

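No gene of the 197 passed limma under any of 60 settings and comparisons, with lowest adjusted p of 0.565, 0.630 and 0.968 over the alternatives. The replicate block also gave 0 (lowest adjusted p 0.833). None of 579 recomputed differences of named genes reversed, but these genes were named for their small p in the main fit. The low-value filters, the replicate block, only the 8 libraries and leaving out a library of the third group cannot change a difference. The count therefore cannot decide whether these differences hold. The numbers of genes whose groups did not overlap, 4, 5 and 7, moved to 8 to 14 for AD_B6 against SJL_B6, 8 to 13 for AD_TG against AD_B6 and 10 to 17 for AD_TG against SJL_B6 when 1 library was left out, where 3 values overlap less easily than 4 (all genes 4.93 to 6.14%, 4.83 to 7.34% and 4.83 to 5.56%). Without the 2 libraries lowest in choroid plexus markers, chosen after seeing the data, they were 18, 13 and 13 (9.14%, 6.60% and 6.60%, all genes 9.85%, 6.01% and 5.18%). Centring gave 7 for AD_B6 against SJL_B6 (3.55%, all genes 3.32%). With Ttr alone, r of Slc4a2 was 0.724 and passed, and with centring r of Slc29a4 was 0.743 and no longer passed; the cause was not tested. Reversals occurred among r that passed nothing: with centring Slc15a2 0.0638, Slc7a8 0.0423 and Slc16a11 0.00747, and with the first marker alone Slc11a1 0.277, Slc7a7 0.0806 and Slc26a7 -0.0276; their cause was not tested. With the median in place of the mean over members, 6 classes moved by more than the SD over libraries, to 7.64 for amino acids, 7.09 for sugars, 8.20 for ions, 6.30 for organic anions, 7.62 for mitochondrial carriers and 7.59 for organic cations. Depth limits values below 10 on the linear scale, which rest on at most 14.3 reads.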
